A study of Homo sapiens with 6 samples.

Results

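Peaks of plasminogen activator inhibitor-1 (PAI-1) chromatin immunoprecipitation were examined in 9 very long human genes: FHIT, WWOX, MACROD2, IMMP2L, LSAMP, DLG2, PTPRD, LRP1B and CSMD1. Many genes of this list lie at common fragile sites, but the place of each gene relative to such a site was not examined here. The genes were taken from 20162 protein-coding genes as a named list and not by a rule on measured values, but with earlier results of these data known. They belong to the 323 protein-coding genes of at least 500 kb on chromosomes 1 to 22 and X. Their annotated spans ran from 899.9 kb (IMMP2L) to 2298.8 kb (PTPRD), with a median of 1899.6 kb, and covered 15.3 Mb in all. PAI-1 is a secreted inhibitor of the enzymes that activate plasminogen, and the study asked whether the protein, which it also found in the nucleus, is associated with DNA. Chromatin was precipitated with an anti-PAI-1 antibody from the established human bladder cancer lines RT112 and UM-UC-3, in 2 biological replicates per line, with no treatment named. Each cell line also had 1 input library, which was not analysed here. The 2 groups are thus 2 different cell lines, and a difference between them cannot be told apart from a difference in DNA copy number, which these lists do not measure.

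Common fragile sites are regions that tend to break when DNA replication is slowed. Many of them lie in genes of great length, where replication and transcription run over the same stretch for a long time and where replication origins are sparse, and deletions inside such genes are frequent in tumour cell lines. The genes themselves have unrelated functions. FHIT and WWOX are enzymes with reported tumour suppressor roles, MACROD2 removes ADP-ribose from proteins, IMMP2L is part of a protease of the mitochondrial inner membrane, LSAMP, DLG2 and PTPRD act in cell adhesion and at synapses, LRP1B belongs to the LDL receptor family and CSMD1 is a large membrane protein that regulates complement.

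The 4 peak lists held 96423 and 60227 peaks for RT112 replicates 1 and 2, and 109287 and 114094 for UM-UC-3 replicates 1 and 2. Of these, 459, 267, 531 and 566 had their midpoint in the 9 genes, which was 0.476%, 0.443%, 0.486% and 0.496% of each list. Because the lists differ in length, the number of peaks per 100 kb of a gene was divided by the number per 100 kb over the genome in the same library, and this ratio is called the relative density. Where 4 values are listed together, they are RT112 replicates 1 and 2 and then UM-UC-3 replicates 1 and 2. Numbers of peaks given for introns, windows and stretches are not scaled to the length of the lists. The lists carry no read counts, so the sequencing depth behind them is unknown and no counting interval can be given. Peaks carry a score, the −log10 of a p or q value from the peak caller, which was used only to rank or filter peaks within a library. With 2 libraries against 2, an exact permutation test of a single gene cannot give a two-sided p below 0.33, so the cell lines were compared with limma over all 323 long genes.

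The sequences under some of the repeated peaks are shown because these are positions where both replicates of a line placed a high score. For each gene and line, peaks with a score of at least 10 in both replicates were ranked by the lower of the 2 scores. The first-ranked peaks of 4 genes in RT112 and of 1 gene in UM-UC-3 follow, which are examples and not the 5 highest over all genes and lines. Each line gives the central 200 bases of the interval shared by the replicates, on the plus strand of GRCh37 (hg19), with runs of at least 12 bases made only of purines or only of pyrimidines in capitals.
WWOX RT112 chr16:79071243-79071442: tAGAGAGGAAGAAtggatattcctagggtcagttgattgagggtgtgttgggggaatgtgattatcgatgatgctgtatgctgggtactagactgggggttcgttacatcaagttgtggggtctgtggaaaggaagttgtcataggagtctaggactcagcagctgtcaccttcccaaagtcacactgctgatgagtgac
FHIT RT112 chr3:61204258-61204457: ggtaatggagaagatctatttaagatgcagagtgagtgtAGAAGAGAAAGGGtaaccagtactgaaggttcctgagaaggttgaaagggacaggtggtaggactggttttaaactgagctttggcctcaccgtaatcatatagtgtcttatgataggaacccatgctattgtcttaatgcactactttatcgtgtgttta
MACROD2 RT112 chr20:15450167-15450366: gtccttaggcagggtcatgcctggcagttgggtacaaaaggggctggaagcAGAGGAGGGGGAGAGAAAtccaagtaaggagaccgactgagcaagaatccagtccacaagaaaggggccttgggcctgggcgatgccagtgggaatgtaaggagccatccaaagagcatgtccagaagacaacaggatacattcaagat
DLG2 RT112 chr11:84658287-84658486: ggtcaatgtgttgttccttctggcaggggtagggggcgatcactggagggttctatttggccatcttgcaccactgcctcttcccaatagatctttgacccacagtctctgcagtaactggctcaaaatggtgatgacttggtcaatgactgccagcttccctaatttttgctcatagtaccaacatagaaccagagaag
MACROD2 UM-UC-3 chr20:14518313-14518512: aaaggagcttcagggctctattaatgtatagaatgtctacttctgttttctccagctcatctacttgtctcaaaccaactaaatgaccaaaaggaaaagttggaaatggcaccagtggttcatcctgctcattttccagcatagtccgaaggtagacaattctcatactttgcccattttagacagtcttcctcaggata

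All 5 intervals lie in introns of their genes. The WWOX interval of RT112 scored 27.9 and 22.3 in the 2 replicates. The FHIT interval of RT112 scored 22.7 and 20.5, and the MACROD2 interval of UM-UC-3 scored 23.8 and 21.8. Purine or pyrimidine runs of this length were common in these genes whether or not a peak was called: 28.5% of 76709 windows of 200 bases tiled along the 9 genes held one, against 33.3%, 37.8%, 28.8% and 27.4% of the peaks in them, read over their central 200 bases, for RT112 replicates 1 and 2 and UM-UC-3 replicates 1 and 2. Over all peaks of the same libraries the shares were 31.1%, 31.9%, 29.98% and 29.9%.

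Relative density spread widely among the 9 genes. It ran from 0.246 ± 0.068 (SD, n = 2) in LRP1B to 1.70 ± 0.057 in MACROD2 in RT112, and from 0.233 ± 0.040 in LRP1B to 1.52 ± 0.028 in DLG2 in UM-UC-3. The order of the genes differed between the lines: in RT112 the 2 highest were MACROD2 and WWOX (1.62 ± 0.138), followed by DLG2 (1.06 ± 0.030), whereas in UM-UC-3 DLG2 was followed by LSAMP (1.13 ± 0.033) and PTPRD (1.05 ± 0.048). Of neighbours in the RT112 order, the replicates of MACROD2 and WWOX overlapped, and so did those along the run of LSAMP, IMMP2L, FHIT, PTPRD and CSMD1. In UM-UC-3 the neighbours WWOX and FHIT overlapped, as did IMMP2L and MACROD2, and the other neighbours did not. LRP1B stood below the other 8 genes in all 4 libraries. The RT112 median over the 9 genes was 0.709, against 0.966 over all 323 long genes, and the UM-UC-3 median was 0.937 against 1.01.

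**Figure D1:**
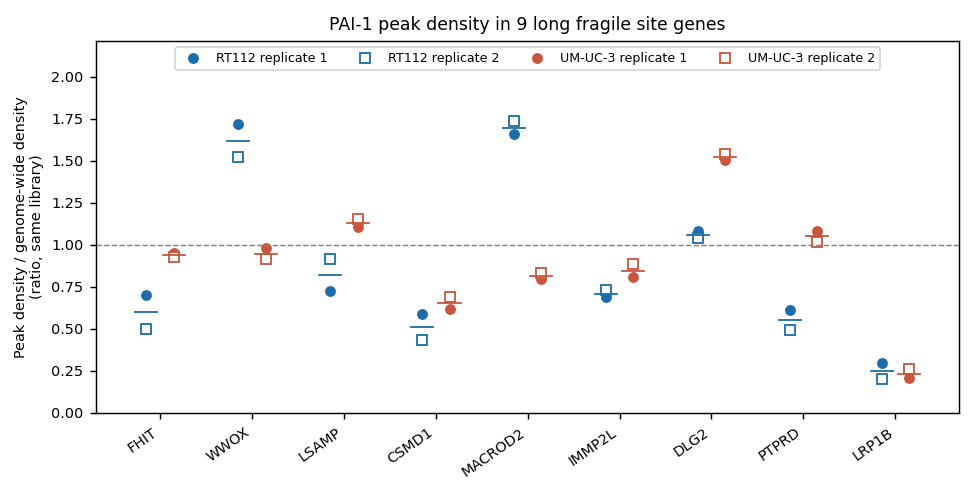
Relative density, the number of peaks per 100 kb of the gene divided by that over the genome in the same library, for 9 genes. Filled and open symbols are replicates 1 and 2 of RT112 (blue) and UM-UC-3 (red), short lines are means of 2 replicates and the dashed line marks the genome-wide density. WWOX and MACROD2 lie above 1 only in RT112, DLG2 lies highest in UM-UC-3 and LRP1B lies below 0.3 in each library.

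Between the cell lines, WWOX and MACROD2 had a lower relative density in UM-UC-3, DLG2 and PTPRD had a higher one, and the other 5 genes did not pass the test. The 4 of 9 called genes compare with 37.8% of the 323 long genes called in either direction (limma, Benjamini-Hochberg adjusted p under 0.05), and 22% of the 323 were higher and 15.8% lower in UM-UC-3. The share called among the 9 was 44.4%, and it was 39.4% among the 71 long genes of at least 1 Mb. The 4 libraries separated by cell line in 8 of the 9 genes, 6 with UM-UC-3 higher and 2 with RT112 higher, and 77.1% of all long genes separated in this way. The median log2 difference, UM-UC-3 minus RT112, was 0.31 over the 9 genes and 0.04 over all long genes. With 1 library left out, the spread within a line came only from the line that kept 2 libraries. Fewer genes were called without a UM-UC-3 library and more without an RT112 library, and the p-values of these fits do not measure the spread of both lines. Differences are on the scale of log2(relative density + 0.1), which understates those of genes with few peaks.

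**Figure D2:**
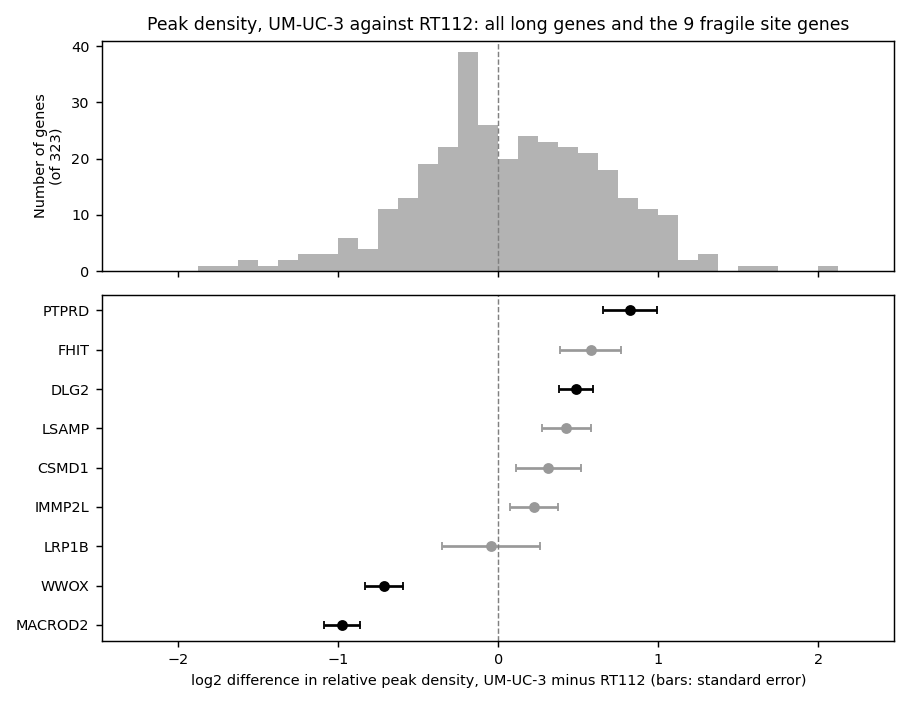
Upper panel, the number of long genes (of 323) by log2 difference in relative density, UM-UC-3 minus RT112. Lower panel, the same difference with its standard error for each of the 9 genes, black where the limma call was made and grey where it was not. MACROD2 and WWOX lie to the left at −0.98 and −0.71, DLG2 and PTPRD to the right at 0.48 and 0.82, inside the spread of all long genes.

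FHIT encodes a hydrolase of diadenosine triphosphate and spans FRA3B, the best known fragile site. It covers chr3:59733003-61237133 (GRCh37, minus strand, 1504.1 kb, 38.9% GC). It held 36 and 16 peaks in RT112 against 55 and 56 in UM-UC-3, at relative densities of 0.704, 0.501, 0.949 and 0.925. Both UM-UC-3 values lay above both RT112 values. The log2 difference was 0.58 ± 0.19 (SE), which did not pass the threshold (limma adjusted p = 0.054). The RT112 libraries differ from each other: without replicate 1 the difference was 0.79 and without replicate 2 it was 0.37. Without UM-UC-3 replicate 1 or 2 it was 0.56 and 0.59. A fit with 1 library in a line takes its spread from the other line alone. Peaks were thin in intron 2, which held 1, 0, 3 and 3 peaks over 158.5 kb, and the 522.7-kb intron 5 held 16, 5, 22 and 22. The longest run without an RT112 peak measured 182.6 kb, from 300.1 to 482.7 kb behind the gene start, and held 3 and 3 peaks of UM-UC-3. The best RT112 peak lay at chr3:61204189-61204526 in intron 1, 32.7 kb from the gene start, and the only repeated high-scoring peak of UM-UC-3 lay at chr3:60086051-60086323 in intron 5, with scores of 11.3 and 12.9.

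WWOX, a WW-domain oxidoreductase, spans FRA16D at chr16:78133297-79246564 (plus strand, 1113.3 kb). It held 65 and 36 peaks in RT112 against 42 and 41 in UM-UC-3, at relative densities of 1.72, 1.52, 0.979 and 0.915. The RT112 libraries were both above the UM-UC-3 libraries. The log2 difference was −0.71 ± 0.12 (limma adjusted p = 0.0079), and relative to the density of chromosome 16 it was −0.57 ± 0.13 (adjusted p = 0.0155). The difference sat in intron 8, which covers 778.9 kb of the gene and held 55 and 33 peaks in RT112 against 30 and 27 in UM-UC-3. The 222.6-kb intron 5 held 7 and 2 against 10 and 10. These counts are not scaled to the length of the lists. The densest 100-kb window was the same in both lines, from 1000 to 1100 kb behind the start, with 11 and 9 peaks in RT112 against 8 and 7 in UM-UC-3. High-scoring peaks repeated in both replicates numbered 3 in RT112 against 4 in UM-UC-3, which is 2.69 and 3.59 per Mb where the genome had 1.29 and 2.24. The best of RT112 was chr16:79071159-79071526 in intron 8. WWOX is the most GC-rich of the 9 genes at 42.6%, rank 277 from the lowest of 323. Of the 12 other long genes within 0.5 percentage points of its GC content, 5 and 4 had a lower relative density than WWOX in RT112 against 1 and 1 in UM-UC-3. With only the 25% of peaks with the highest scores the difference was −0.60 ± 0.24 and not called (limma adjusted p = 0.107), and without scaling to the library it was −0.22 ± 0.40 (adjusted p = 0.707).

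MACROD2, a hydrolase that removes mono-ADP-ribose, covers chr20:13976015-16033842 (plus strand, 2057.8 kb, 37.9% GC). It held 116 and 76 peaks in RT112 against 63 and 69 in UM-UC-3, at relative densities of 1.66, 1.74, 0.794 and 0.833. The replicates lay close together and the lines far apart. Of the 42 other long genes within 0.5 percentage points of its GC content, 40 and 40 had a lower relative density in RT112, as had 10 and 11 in UM-UC-3. Its log2 difference of −0.98 ± 0.11 was the largest of the 9 in size (limma adjusted p = 0.0018). The whole of chromosome 20 moved the same way: it had 5.74 and 3.85 peaks per 100 kb in RT112 against 3.60 and 3.67 in UM-UC-3, although the UM-UC-3 lists are longer. Relative to its own chromosome MACROD2 stood at 0.983, 0.959, 0.849 and 0.914, and the difference was −0.13 ± 0.15, no longer called (limma adjusted p = 0.51). Without scaling to the library it was −0.50 ± 0.40 and not called (adjusted p = 0.38). Among its introns of at least 100 kb the lines differed most in intron 4, with 14 and 11 peaks in RT112 against 2 and 3 in UM-UC-3 over 191.3 kb. Repeated high-scoring peaks followed the density, with 9 in RT112 against 2 in UM-UC-3. The best of UM-UC-3, chr20:14518306-14518520 in intron 4, ended 329 bases before a repeated peak of RT112, and the lists of the 2 lines shared no peak at either position. The best of RT112 was chr20:15450120-15450414 in intron 7.

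IMMP2L, a subunit of the mitochondrial inner membrane peptidase, covers chr7:110302700-111202573 (minus strand, 899.9 kb, 36.1% GC). It held 21 and 14 peaks in RT112 against 28 and 32 in UM-UC-3, at relative densities of 0.686, 0.733, 0.807 and 0.884. All 4 values were below the genome-wide density, with UM-UC-3 slightly higher in both replicates. The log2 difference was 0.22 ± 0.15 and did not pass the test (limma adjusted p = 0.26). No high-scoring peak was repeated in RT112, and 1 was repeated in UM-UC-3.

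LSAMP, a cell adhesion protein of the limbic system, covers chr3:115521221-116858236 (minus strand, 1337.0 kb, 37.2% GC). It held 33 and 26 peaks in RT112 against 57 and 62 in UM-UC-3, at relative densities of 0.726, 0.916, 1.11 and 1.15. The lines did not overlap. The log2 difference of 0.42 ± 0.15 missed the threshold (limma adjusted p = 0.069). Without RT112 replicate 1 or 2 the difference was 0.28 and 0.57. The canonical transcript covers only 643.1 kb of the annotated gene. Its 358.3-kb intron 1 held 8 and 5 peaks in RT112 against 17 and 16 in UM-UC-3, whereas the 166.9-kb intron 3 held 9 and 6 against 7 and 9. Per 100 kb, intron 3 held 5.39 and 3.60 peaks in RT112 against 4.19 and 5.39 in UM-UC-3. The genome-wide densities of these libraries were 3.40 and 2.12 against 3.85 and 4.02. Relative to the genome, intron 3 thus stood higher in RT112, unlike the whole gene. The only repeated high-scoring peak, chr3:115637581-115637966 in intron 3, was found in RT112 with scores of 11.6 and 12.3.

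DLG2, a scaffold of the postsynaptic density, covers chr11:83166055-85339379 (minus strand, 2173.3 kb, 37.02% GC). It held 80 and 48 peaks in RT112 against 126 and 135 in UM-UC-3, at relative densities of 1.08, 1.04, 1.504 and 1.54. It was the densest of the 9 genes in UM-UC-3, where it ranked 292 and 296 from the lowest of the 323 long genes. The log2 difference was 0.48 ± 0.11 (limma adjusted p = 0.016), and 0.42 ± 0.12 relative to chromosome 11 (adjusted p = 0.029). Of the 44 other long genes within 0.5 percentage points of its GC content, 35 and 37 had a lower relative density in RT112, as had 43 and 42 in UM-UC-3. Introns 3 and 6, of 313.3 and 576.9 kb, carried 22, 24 and 35, 37 peaks in UM-UC-3 and 12, 8 and 18, 9 in RT112, not scaled to the longer lists of UM-UC-3. Repeated high-scoring peaks numbered 9 in UM-UC-3 and 3 in RT112, with the best at chr11:85011937-85012269 in intron 3 and at chr11:84658189-84658584 in intron 6. Without UM-UC-3 replicate 1 or 2 the difference stayed at 0.50 and 0.47 and was no longer called. Its standard error was larger and came from the RT112 replicates alone. With only the 25% of peaks with the highest scores it was 0.91 ± 0.31 and not called (adjusted p = 0.0667).

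PTPRD, a receptor-type tyrosine phosphatase, covers chr9:8314246-10613002 (minus strand, 2298.8 kb, 35.5% GC). It held 48 and 24 peaks in RT112 against 96 and 94 in UM-UC-3, at relative densities of 0.614, 0.492, 1.08 and 1.02. Both UM-UC-3 libraries were near the genome-wide density and both RT112 libraries far below it. Of the 41 other long genes within 0.5 percentage points of its GC content, 16 and 10 had a lower relative density in RT112, as had 31 and 26 in UM-UC-3. The medians of these genes were 0.668 and 0.645 in RT112 against 0.793 and 0.888 in UM-UC-3. The log2 difference was 0.82 ± 0.17 (limma adjusted p = 0.013), and 0.73 ± 0.17 relative to chromosome 9 (adjusted p = 0.0148). The excess in UM-UC-3 was present in most of the long introns: intron 9 held 15 and 13 peaks against 4 and 4, intron 5 held 10 and 10 against 3 and 2, and intron 10 held 8 and 10 against 3 and 0. Intron 2, at the 5′ end, was an exception with 7 and 4 against 8 and 2. None of these intron counts is scaled, and the UM-UC-3 lists are longer. UM-UC-3 had 6 repeated high-scoring peaks and RT112 had none. Without UM-UC-3 replicate 1 or 2 the difference was 0.78 and 0.86, close to that of all libraries, and was no longer called. Its standard error was larger and came from the RT112 replicates alone.

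LRP1B, an endocytic receptor of the LDL receptor family, had the fewest peaks for its length. It covers chr2:140988992-142888585 (minus strand, 1899.6 kb) and held 19 and 8 peaks in RT112 against 15 and 20 in UM-UC-3, at relative densities of 0.294, 0.198, 0.205 and 0.262. The lines overlapped, and the log2 difference was −0.05 ± 0.30 (limma adjusted p = 0.92), with the opposite sign relative to chromosome 2 (0.062) and without scaling (0.42). Its ranks from the lowest of 323 long genes were 8 and 6 in RT112 against 2 and 2 in UM-UC-3. The longest run without a peak in either UM-UC-3 replicate measured 567.1 kb, chr2:141018869-141585977, which is 29.9% of the gene and the longest such run in any of the 323 long genes. It lies from 1302.6 to 1869.7 kb behind the gene start, between introns 31 and 86, and held 4 and 4 peaks of RT112. Inside it lay a run of 224.2 kb, chr2:141158656-141382903, in which no library had a peak. The next longest run in UM-UC-3 over all long genes was 438.5 kb, and the median was 80.4 kb. LRP1B had no high-scoring peak repeated in either line. It has the lowest GC content of the 9 genes, 34.8%, rank 11 from the lowest of 323. Of the 30 other long genes within 0.5 percentage points of its GC content, 3 had a lower relative density in RT112 replicate 1 and none had one in the other 3 libraries.

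CSMD1, a membrane protein with CUB and sushi domains, covers 2059.6 kb of the short arm of chromosome 8 (2792875 to 4852494, minus strand, 38.5% GC). It held 41 and 19 peaks in RT112 against 49 and 57 in UM-UC-3, at relative densities of 0.585, 0.434, 0.617 and 0.688. All 4 values were low, and those of UM-UC-3 lay just above those of RT112. The log2 difference was 0.31 ± 0.20 and did not pass the test (limma adjusted p = 0.25). Without RT112 replicate 1 or 2 the difference was 0.49 and 0.13. Near the gene start, the 356.8-kb intron 1 held 8, 3, 8 and 5 peaks and the 387.9-kb intron 3 held 7, 1, 10 and 11. Both lines had their densest 100-kb window from 1700 to 1800 kb behind the start, with 4 and 3 peaks in RT112 against 5 and 7 in UM-UC-3. The repeated high-scoring peaks also lay in the far part of the gene, 1 in RT112 in intron 26, with scores of 17.7 and 13.9, and 2 in UM-UC-3 in introns 41 and 26. The RT112 peak overlapped a peak in each UM-UC-3 library, at the low scores of 3.88 and 3.85.

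Most 100-kb windows along these genes held peaks in both lines, and LRP1B was the main exception. Of the 148 full windows of 100 kb in the 9 genes, 10 had no peak in either RT112 replicate and 6 had none in either UM-UC-3 replicate. These are 6.76% and 4.05%, against 4.03% and 1.68% of the 2557 windows in all long genes. LRP1B accounted for 6 of the 10 and 5 of the 6. No library had a peak over the start of any of the 9 genes, taken as the outer 5′ end of the annotated gene. The nearest lay 0.786 kb away, at PTPRD in both UM-UC-3 libraries. This does not cover transcripts that start further inside a gene. Within 3 kb of an annotated transcription start lay 8, 6, 9 and 10 peaks of the 4 libraries, in the order given above. Between 4 and 7 of a library's peaks in the 9 genes touched an exon of any transcript, 1.06% to 1.498% of them. Exons make up 0.815% of the bases, but a whole peak touches an exon more often than a single base lies in one. These are unlike measures, and no share for windows of matched width was counted.

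**Figure D3:**
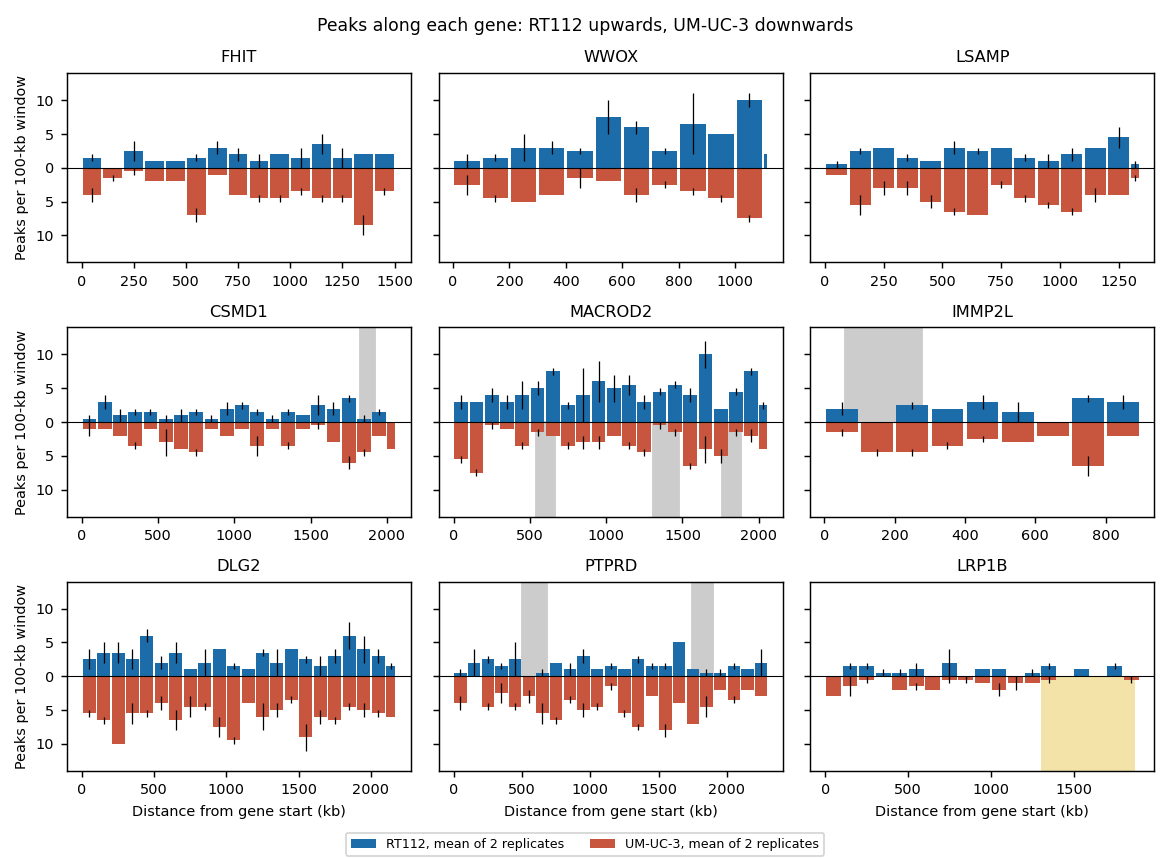
Number of peaks in 100-kb windows along each gene, by distance from the gene start in kb; bars are means of 2 replicates for RT112 (upwards, blue) and UM-UC-3 (downwards, red), thin lines join the 2 replicates, and the last window of a gene is shorter. Grey marks the 7 stretches of at least 100 kb without peaks in the line of that side and with at least 5 in each replicate of the other, and yellow the 567.1-kb run without UM-UC-3 peaks in LRP1B, where RT112 has 4 and 4.

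Stretches without peaks in one line, defined as at least 100 kb with no peak in either replicate of that line and at least 5 in each replicate of the other, were found 7 times in 4 of the 9 genes. The longest lay in IMMP2L, from 57.8 to 277.3 kb behind the gene start. There RT112 had no peak over 219.5 kb (chr7:110925226-111144741, 24.4% of the gene) that held 7 and 8 peaks of UM-UC-3. RT112 also lacked peaks over 180.1 kb of PTPRD (chr9:9933252-10113320, with 5 and 9 of UM-UC-3), over a further 150.5 kb of PTPRD (chr9:8715969-8866482, with 6 and 8) and over 102.5 kb of CSMD1 (5 and 7). In MACROD2 the lines changed places, and UM-UC-3 lacked peaks in 3 stretches. They measured 169.0 kb (chr20:15283831-15452875, with 8 and 7 peaks of RT112), 123.8 kb (chr20:15733732-15857500, with 6 and 7) and 123.3 kb (chr20:14518423-14641764, with 12 and 10). Some of the 7 also held repeated high-scoring peaks of the other line, namely 2 in the longest and 1 in the shortest MACROD2 stretch, 1 in the shorter PTPRD stretch and 1 in the CSMD1 stretch. Stretches run between peak midpoints. The repeated RT112 peak in the shortest MACROD2 stretch lay at its edge, 329 bases from a repeated high-scoring peak of UM-UC-3.

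Stretches without RT112 peaks were present in 3 of the 9 genes, against 21.4% of all long genes and 31.0% of those of at least 1 Mb. Stretches without UM-UC-3 peaks were present in 1 of the 9, against 3.1% and 5.63%. Per Mb, the 9 genes held 0.261 RT112-free stretches against 0.318 over all long genes, and 0.196 UM-UC-3-free stretches against 0.0517. The count of 7 depends on the RT112 libraries: leaving out RT112 replicate 1 gave 20 stretches and leaving out RT112 replicate 2 gave 14, where by construction only the other list had to be empty or filled. The LRP1B run of 567.1 kb falls just short of the rule because RT112 had 4 rather than 5 peaks in each replicate, and the CSMD1 stretch falls just inside it.

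Compared with the DNA around them, 5 of the 9 genes had a lower density than their flanks of 1 Mb on both sides in all 4 libraries, against 21.7% of the 323 long genes and 28.2% of those of at least 1 Mb. These were WWOX, MACROD2, IMMP2L, LSAMP and LRP1B. LRP1B stood lowest, with ratios to its flanks of 0.714 and 0.562 in RT112 against 0.259 and 0.324 in UM-UC-3. Its flanks held 1.40 and 0.750 peaks per 100 kb in RT112 against 3.05 and 3.25 in UM-UC-3, where the genome-wide densities of the same libraries were 3.40, 2.12, 3.85 and 4.02. In WWOX the ratios were 0.934, 0.743, 0.803 and 0.767, and in MACROD2 they were 0.823, 0.821, 0.806 and 0.919. IMMP2L stood at 0.765 to 0.915 and LSAMP at 0.726 to 0.946. PTPRD changed side between the lines, from 0.614 and 0.387 in RT112 to 1.19 and 1.20 in UM-UC-3. DLG2 was near its flanks, from 0.960 to 1.14, and FHIT (0.850 to 1.23) and CSMD1 (0.769 to 1.02) straddled 1. With flanks of 500 kb or of 2 Mb the count was 3 of 9, and it was 3 of 9 with only the 25% of peaks with the highest scores.

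Compared with the mean of their chromosomes, 5 of the 9 genes were lower in all 4 libraries, against 22.9% of all long genes and 32.4% of those of at least 1 Mb. These were FHIT, CSMD1, MACROD2, IMMP2L and LRP1B. LRP1B stood at 0.303, 0.203, 0.235 and 0.297 of the density of chromosome 2, and CSMD1 at 0.466, 0.338, 0.609 and 0.676 of its own. FHIT ranged from 0.543 to 0.914 and IMMP2L from 0.719 to 0.844. WWOX was above its chromosome only in RT112 (1.51 and 1.32, against 0.954 and 0.890), PTPRD and LSAMP only in UM-UC-3 (1.11 and 1.05 for PTPRD, 1.07 and 1.12 for LSAMP). In RT112 LSAMP stood at 0.776 and 0.993, the second only just under 1. DLG2 was above chromosome 11 in 3 libraries, at 1.05, 0.995, 1.37 and 1.43.

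**Figure D4:**
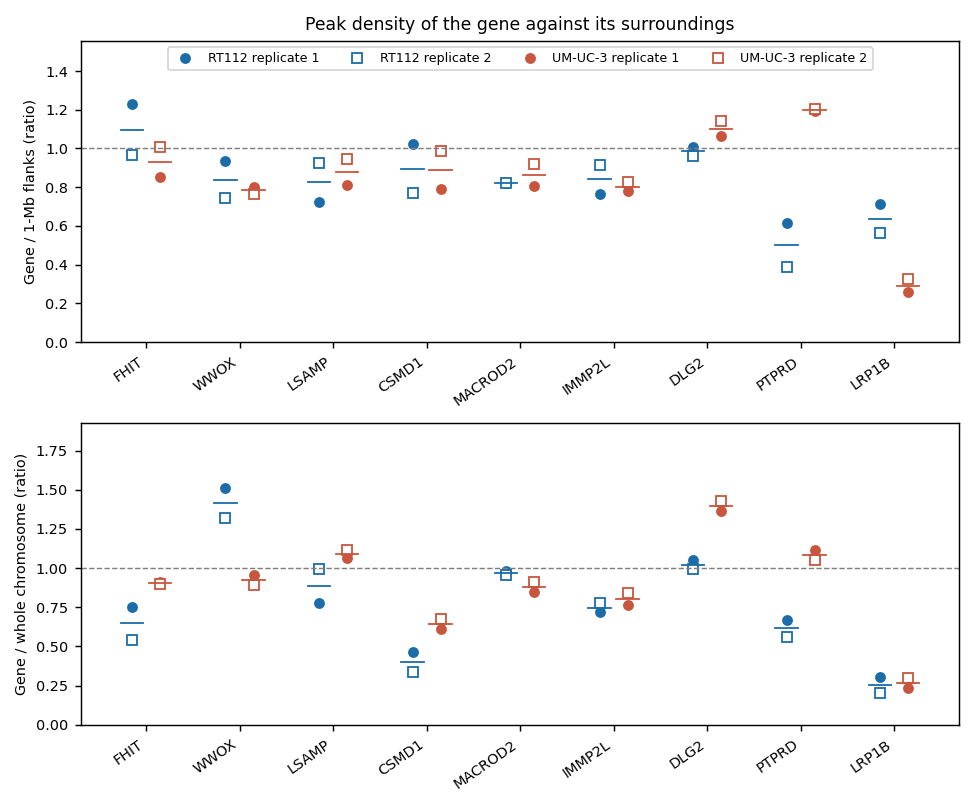
Density of peaks in each gene divided by that of the 1-Mb flanks on both sides (upper panel) and of the whole chromosome (lower panel), per library, with symbols and means as in the plot of relative density and a dashed line at 1. LRP1B lies lowest in UM-UC-3 against its flanks (0.259 and 0.324), and PTPRD lies below its flanks in RT112 and above them in UM-UC-3.

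High-scoring peaks repeated in both replicates numbered 18 in RT112 against 25 in UM-UC-3 over the 9 genes. These are 1.17 and 1.63 per Mb, against 1.23 and 2.22 over all long genes and 1.29 and 2.24 over the genome. By gene, in RT112 and UM-UC-3 respectively, MACROD2 had 9 and 2, DLG2 3 and 9, PTPRD 0 and 6, WWOX 3 and 4, CSMD1 1 and 2, FHIT 1 and 1, LSAMP 1 and 0, IMMP2L 0 and 1 and LRP1B 0 and 0. All 43 lay in introns of the canonical transcript, in genes where exons of any transcript make up only 0.815% of the bases. An exon of another transcript was touched by 1 of them, in WWOX. The peak nearest to a gene start was 21.7 kb away, in DLG2. A peak of the other line overlapped 4 of the 43, and the same share for such peaks over the genome was not counted.

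**Figure D5:**
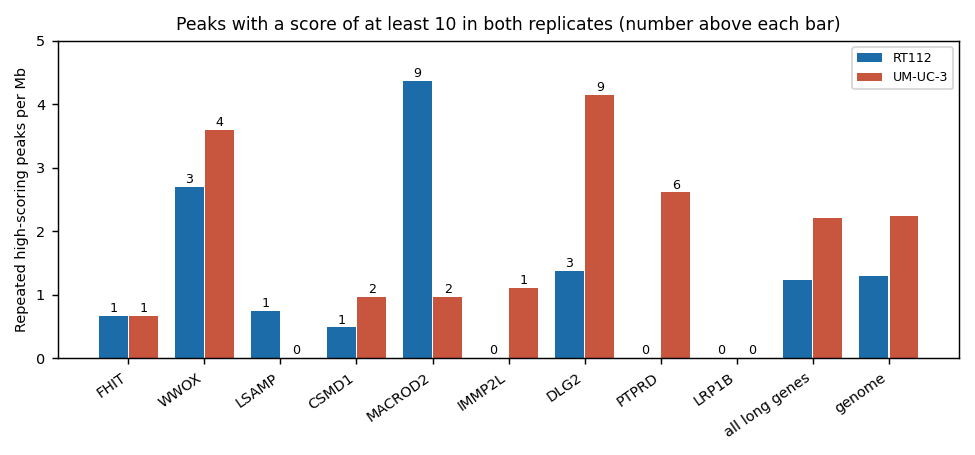
Peaks with a score of at least 10 in both replicates, per Mb, for each gene, all long genes and the genome, in RT112 (blue) and UM-UC-3 (red), with the number of peaks above each gene's bars. MACROD2 is highest in RT112 (9 peaks), DLG2 in UM-UC-3 (9 peaks), and LRP1B has none.

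The lists of the 2 lines shared few positions in these genes. Of the peaks of RT112 replicates 1 and 2 and UM-UC-3 replicates 1 and 2 in the 9 genes, 5.23%, 5.99%, 4.71% and 4.06% overlapped a peak of the other line by at least 1 base, against 7.02%, 7.73%, 5.98% and 5.91% over the genome. Replicates of one line shared more: 37.3%, 64.0%, 76.3% and 71.6% of the peaks were found in the other replicate, against 38.2%, 61.3%, 74.9% and 71.7% over the genome. The low share of RT112 replicate 1 goes with its list being longer than that of replicate 2. Only 7 peaks of RT112 replicate 1 in these genes met a peak in each of the other 3 libraries, and none of them scored 10 or more in all 4. They lay in WWOX (2), MACROD2 (2), CSMD1 (2) and DLG2 (1), all in introns, and the best had a lowest score of 5.16. Averaged over the 4 libraries the share with the other line was 5.0%, and it was 3.40% without RT112 replicate 1.

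Base composition moved with density in RT112 more than in UM-UC-3. Across the 323 long genes, the Spearman correlation of GC content with relative density was 0.578 and 0.572 for the replicates of RT112 but 0.244 and 0.210 for those of UM-UC-3, a description across genes that share a library and are not independent replicates. The 9 genes hold 37.4% GC against 40.9% in the genome, and their peaks had a median of 39.5%, 39.8%, 38.0% and 37.5% in the 4 libraries. Over all peaks of the same libraries the medians were 42.1%, 42.5%, 40.1% and 40.1%. The part of base composition in the differences between the lines was not tested.

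Another 12 long genes at or near common fragile sites were measured in the same way. Of these, 5 were higher in UM-UC-3, 1 was lower and 6 were not called, with a median log2 difference of 0.40. CNTNAP2, a neuronal adhesion protein and the longest of the 12 at 2305.0 kb, had relative densities of 1.03, 0.776, 1.07 and 1.09 and a log2 difference of 0.24 ± 0.16 (limma adjusted p = 0.26). RORA, a nuclear receptor, had the lowest log2 difference, with relative densities of 1.55 and 1.59 against 1.23 and 1.14 (log2 −0.38 ± 0.10, limma adjusted p = 0.031). The density was below the flanks in all 4 libraries in 6 of the 12 and below the chromosome in 4.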

How the data were processed

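PAI-1 ChIP-seq peak lists of 4 libraries (RT112 and UM-UC-3, 2 biological replicates each) were used; the 2 inputs were not analysed here. The authors mapped reads to hg19 with Bowtie 1.1.1, removed duplicates with Picard and called peaks with MACS2 2.1.0.20140616. The study names a false discovery rate for bound sites in a summary by chromosome, but whether it was the call threshold of these lists, and the use of the inputs and pooling, are not given in the sources used here. The deposited score is a −log10 value, whether of p or q is not stated. Peaks with one start and end were counted once, by midpoint, in GENCODE release 44 genes on GRCh37, and assembly gaps were left out of lengths. Relative density was compared with limma 3.58.1 (R 4.3.3, trended eBayes, Benjamini-Hochberg over 323 genes), with a pseudocount of 0.1. The labels do not say that cultures were separate, so p-values measure the spread between these libraries. On simulated data for this comparison over 323 genes, 4, 11 and 19 of 20 genes changed 1.5-, 2- and 3-fold were called, and 2 of 263 unchanged ones. The simulated counts were independent Poisson draws, without extra spread between replicates or shifts of whole chromosomes. They therefore do not give the rate of false calls in the real libraries. Alternatives covered peak filters, counting, flanks, gene span, scaling, pseudocount, thresholds, a replicate block and each library left out. All 9 genes are named, with the best repeated peak per gene and line, some left out, and every stretch that met the rule; of 12 comparison genes, the longest and the one with the lowest difference are named. Other peaks, introns, runs and sets of genes were chosen after their values were seen. Members and lists were chosen with earlier results of these data known. Some items that these rules would name are not reported here.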

Additional observations from a re-analysis of the deposited data

Results flagged for a closer look

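In 3 genes the cell lines fell on opposite sides of the flanks or of the chromosome mean. PTPRD did so against both, and LSAMP and WWOX against the chromosome only. The share of all long genes that change side in this way was not counted, while 77.1% of them separated by cell line in relative density. The density of PTPRD divided by that of its flanks was under 1 in both RT112 libraries and over 1 in both UM-UC-3 libraries, with the UM-UC-3 mean higher by 0.698, and this difference was not tested. Divided by the density of chromosome 9, PTPRD again changed side, with the UM-UC-3 mean higher by 0.467, and the log2 difference on that scale was 0.73 (limma adjusted p = 0.0148). LSAMP divided by chromosome 3 was 0.776 and 0.993 in RT112 against 1.07 and 1.12 in UM-UC-3, a difference in means of 0.207. RT112 replicate 2 thus lay only just under 1. The log2 difference of 0.28 did not pass the test (limma adjusted p = 0.191). WWOX divided by chromosome 16 went the other way, over 1 in RT112 and under 1 in UM-UC-3, with a difference in means of −0.494, UM-UC-3 minus RT112, and a log2 difference of −0.57 (limma adjusted p = 0.0155).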

How the results depend on the processing

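Of the 323 long genes, 122 differed between the lines, and this count was 316 with only peaks found in the other replicate (which gives both replicates nearly the same peaks by construction), 70 with the highest-scoring 25% of peaks, 190 of 824 genes of at least 300 kb, 40 of 72 genes of at least 1 Mb (IMMP2L kept), 68 without scaling, and 64 to 202 with one library left out. Of the 9 members, 4 were called, and 9, 2 and 2 with repeated peaks, the highest-scoring 25% and no scaling, and 2 to 6 with one library left out. Without scaling the median log2 difference of all long genes rose from 0.04 to 0.57, and 65 of 68 calls were higher in UM-UC-3 (95.6%), against 71 of 122 (58.2%) as reported. The LRP1B difference changed sign relative to its chromosome (0.062), without scaling (0.42), and without RT112 replicate 1 (0.15) or UM-UC-3 replicate 1 (0.08), none of them called, and ranged from −0.25 to 0.15 with one library left out. Members below their flanks fell from 5 to 3 with the highest-scoring 25%, flanks of 500 kb and flanks of 2 Mb. Peaks shared between the lines, 5.0% on average, were 2.76% with repeated peaks, 1.57% with the highest-scoring 25%, 3.41% with a reciprocal overlap of 50%, and 3.40% to 4.59% with one library left out. The 7 stretches became 26 with repeated peaks, 2 with the highest-scoring 25%, 1 with a 200-kb minimum, 1 with at least 10 peaks in the other line, and up to 20 with one library left out. Repeated high-scoring peaks numbered 61 in RT112 and 141 in UM-UC-3 from a score of 5, and 2 and 2 from a score of 20. With the replicate block 103 long genes were called and the same 4 members; replicate numbers are only shared numbers, since the correlation of same-numbered deviations was −0.02. Causes of these changes were not tested unless stated. Unknown sequencing depth limits every statement on absent peaks.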
